A study of Colocasia esculenta with 9 samples.

Results

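Opposite-strand overlaps between neighbouring gene models were examined in leaf RNA of taro (Colocasia esculenta), an aroid grown for its corm and leaves. Gene models were sorted along each scaffold by their smallest start, and consecutive models on opposite strands were kept when their ranges from first to last exon base overlapped. This gave 2060 pairs among 45445 consecutive pairs, made of 4060 of the 57034 gene models, of which 60 belonged to 2 pairs. The choice used the annotation alone and no expression value. No consecutive pair on the same strand overlapped, and 9.2% of the 22395 consecutive pairs on opposite strands did.

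RNA-seq was done on 9 leaf libraries, 3 from each of the cultivars Niue, Palau 10 (Ngerruuch) and Sam-07 (Samasama). All plants were raised from tissue culture and were 8 months old and vegetative, with no treatment contrast between the groups. They were kept in a growth chamber at 27 °C, and RNA came from the youngest 2 leaves. The labels do not say whether the 3 libraries of a cultivar came from separate plants, so p-values measure the spread between these libraries, which may be technical.

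Genes can overlap in several ways. When transcription of both runs towards each other, the RNA tails can cover the same bases (tail to tail), and when it runs apart, the starts can (head to head). A gene can also sit whole inside an intron of a host gene, on the other strand. Transcripts of opposite strands are complementary where their exons overlap. In Arabidopsis, the antisense RNA COOLAIR of the flowering repressor FLC is a known case in which an antisense transcript takes part in silencing its sense gene. The deposited counts do not separate strands: a fragment on exon bases of a single model was counted for it whichever strand it came from, and a fragment over exons of both models was not counted for either. Fragment counts therefore come from exclusive exon bases, those that no other model's exon covers, and RNA of the host's intron that crosses an inner model's exon cannot be told apart from RNA of the inner model.

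The libraries held 5468567 to 18175384 assigned fragments, and members of overlapping pairs took 3.65% to 5.35% of them. Niue replicates 3 and 4 were the shallowest, with 6083660 and 5468567 fragments. Fragment counts were brought to a common library total with TMM factors and are given as CPM. By Euclidean distance in log2(CPM + 1) over the filtered gene models, 2 libraries were nearest to a library of another cultivar. Palau 10 replicate 3 lay nearest to Sam-07 replicate 3, and Sam-07 replicate 2 nearest to Niue replicate 3, with mean distances to their own cultivar of 154 and 127, against 79.6 to 112 in the other libraries. Counts of calls are therefore given with and without these 2 libraries. The files give identifiers but no gene names or products, so no role can be stated for a named model.

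Exons were shared in 1363 of the 2060 pairs (66.2%), 388 pairs (18.8%) had the whole of one model inside a single intron of the other, and in 309 pairs (15%) the exons interleaved without a shared base. Of the shared-exon pairs, 527 were tail to tail, 361 were head to head and 475 had the range of one model inside that of the other. The shared stretch ranged from 1 to 2253 bases with a median of 183, and it covered the whole exon length of the shorter model in 50 pairs and over 50 percent of it in 399. The longest shared stretches belonged to Taro_013040|Taro_013041 with 2253 bases, tail to tail, and Taro_021246|Taro_021247 with 1848 bases, one inside the range of the other. Introns around nested models had a median length of 7018.5 bases, from 525 to 21805, and 155 of the 388 were the host's first intron. Taro_000659 lay in the longest of them, the third intron of Taro_000658, and Taro_042629 in an intron of 19025 bases of Taro_042628. None of these 4 nested or host models had a fragment in any library.

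Members of overlapping pairs spanned more of the scaffold than other gene models, with a median of 5564.5 against 2842.5 bases, at a similar median exon length of 843.5 against 867 bases. Single-exon models made up 2.7% of members and 7.1% of the others. Inner models of nested pairs had a median of 2 exons and hosts a median of 4.

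**Figure D1:**
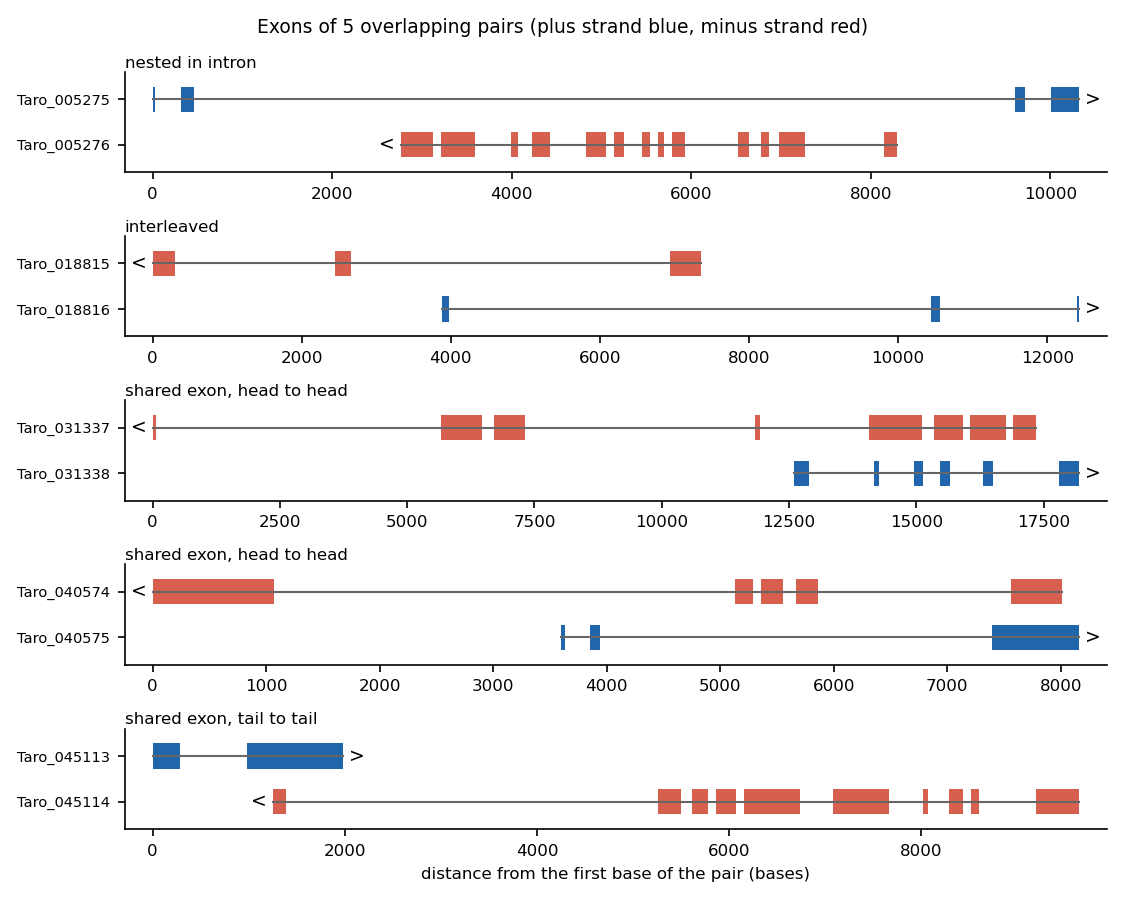
Exons (boxes) and introns (lines) of 5 overlapping pairs, drawn to scale against the distance in bases from the first base of the pair, with the plus strand in blue, the minus strand in red and an arrowhead at the 3′ end. Taro_005276 lies wholly in an intron of Taro_005275, Taro_018815 and Taro_018816 overlap without a shared exon base, and the 3 other pairs share 639, 449 and 137 exon bases from top to bottom.

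Expression was compared first as presence, a mean of 1 CPM or more over the 9 libraries. Of the 4060 members, 1157 (28.5%) reached it, beside 31.2% of the 52974 other gene models, and 52% of members had a fragment in some library, beside 48.4%. Presence was lowest among members with few exclusive exon bases. None of the 50 members without an exclusive exon base had a fragment, and 2.72% of the 331 members with 1 to under 200 exclusive bases, 8.05% of those with 200 to under 500 and 41% of those with 500 or more reached 1 CPM. In other gene models of the same exon lengths these shares were 6.86%, 9.22% and 38.3%. No test of the difference between the sets was made.

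Both models were present in 299 of the 2060 pairs (14.5%), 1 model in 579 and neither in 1182. The share with both present differed between arrangements. It was 30.2% in tail-to-tail pairs with shared exons, 16.3% in head-to-head pairs, 12.6% in interleaved pairs, 6.19% in nested pairs and 3.79% in shared-exon pairs where one range held the other. The last group includes the 50 pairs in which all exon bases of the shorter model are shared. That model cannot be counted, so both could not be present there. Shares were not adjusted for exclusive exon bases. Non-overlapping consecutive pairs had both models present in 15.8% on opposite strands and 19.3% on the same strand. Non-overlapping pairs at most 1000 bases apart reached 46.6% tail to tail and 20.4% head to head, and no test of overlapping against close pairs was made. In single libraries both models were at 1 CPM or more in 277 to 335 pairs, with the 2 highest values, 320 and 335, in Niue replicates 3 and 4, the shallowest libraries. No library of any cultivar fell short of 1 CPM for either model in 204 pairs, while 35 pairs met this in 2 of the 3 cultivars and 40 in a single cultivar.

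**Figure D2:**
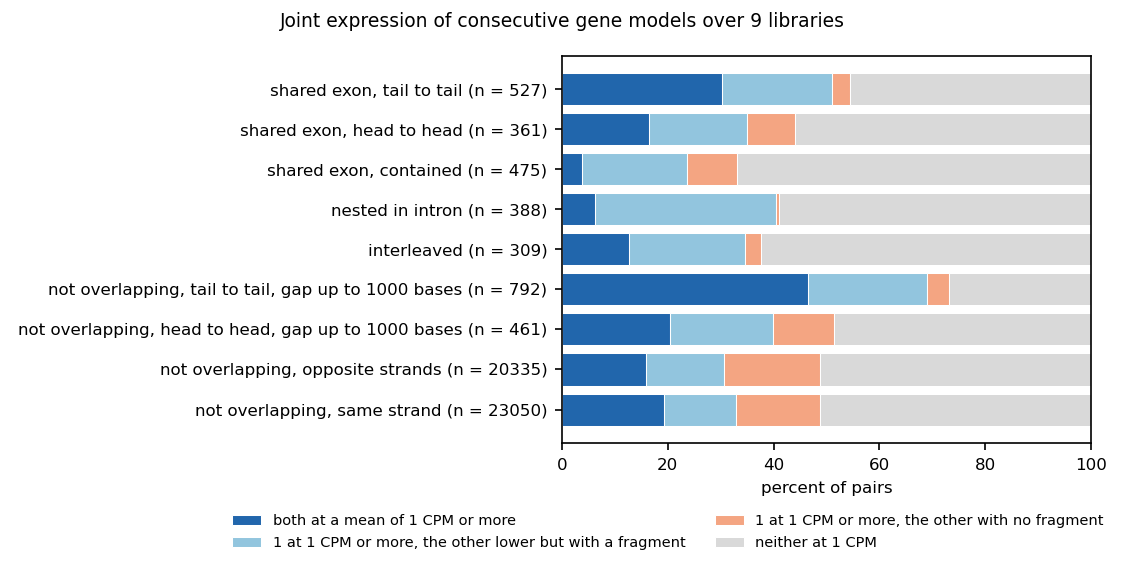
Percent of consecutive pairs (bars, number of pairs in brackets) with both models, 1 model or neither at a mean of 1 CPM or more over 9 libraries, with pairs of 1 present model split by whether the lower model had any fragment. Both models were present in 30.2% of tail-to-tail pairs with shared exons and 6.19% of nested pairs, and among nested pairs almost every low model beside a present one had a fragment.

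Low counts were frequent beside a present model. Where a single model was present, its partner under 1 CPM had at least 1 fragment in 472 of 579 overlapping pairs (81.5%), and in 6110 of 13499 non-overlapping consecutive pairs (45.3%). Nested pairs had the highest share, 133 of 135 (98.5%), followed by interleaved pairs with 88.3% and tail-to-tail shared-exon pairs with 85.9%. Close tail-to-tail neighbours without overlap also had a high share, 84.8%. Partners of models without any fragment were seldom seen: 14.2% of them had a fragment in overlapping pairs and 29.7% in non-overlapping pairs.

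In nested pairs, of 146 hosts at 1 CPM or more, 145 had an inner model with a fragment, yet 24 of these inner models reached 1 CPM, and the median inner level was 0.185 CPM. Of 185 hosts without a fragment, 13% had an inner model with one. Hosts were present in 37.6% of nested pairs and inner models in 9.54%.

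The size of this low signal was expressed per exclusive exon base. For the 88 nested pairs with a host at 10 CPM or more and an inner model under 1 CPM, the inner models together had 0.912%, 2.77% and 2.83% of the hosts' fragments per base in Niue replicates 2, 3 and 4. The values were 0.54%, 0.937% and 1.5% in Palau 10 replicates 1 to 3, and 1.02%, 0.544% and 1.17% in Sam-07 replicates 1 to 3. Niue replicates 3 and 4 were highest, Niue replicate 2 lay among the other cultivars, and the groups overlapped. The mean was 2.17% ± 1.09 in Niue, 0.992% ± 0.482 in Palau 10 and 0.91% ± 0.325 in Sam-07 (SD, n = 3), and an exact permutation test over the 280 assignments of libraries to cultivars gave p = 0.243, where the smallest possible p is 0.00357. Niue replicates 3 and 4 are also the shallowest libraries, and the part of depth in these values was not tested. Interleaved pairs of the same kind had 1.16% to 4.15% across libraries and shared-exon pairs 0.624% to 1.37%. In 4026 non-overlapping opposite-strand pairs the same quantity was 0.158% to 0.307%, below every library value of the nested pairs, and in 131 close tail-to-tail pairs it was 0.218% to 0.709%. The median over single pairs was 1.32% in nested pairs, and 0 in non-overlapping opposite-strand pairs, where 43% of the low models had a fragment. The reverse arrangement, a host under 1 CPM around an inner model at 10 CPM or more, occurred in 7 pairs, with 0.125% to 1.21%.

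**Figure D3:**
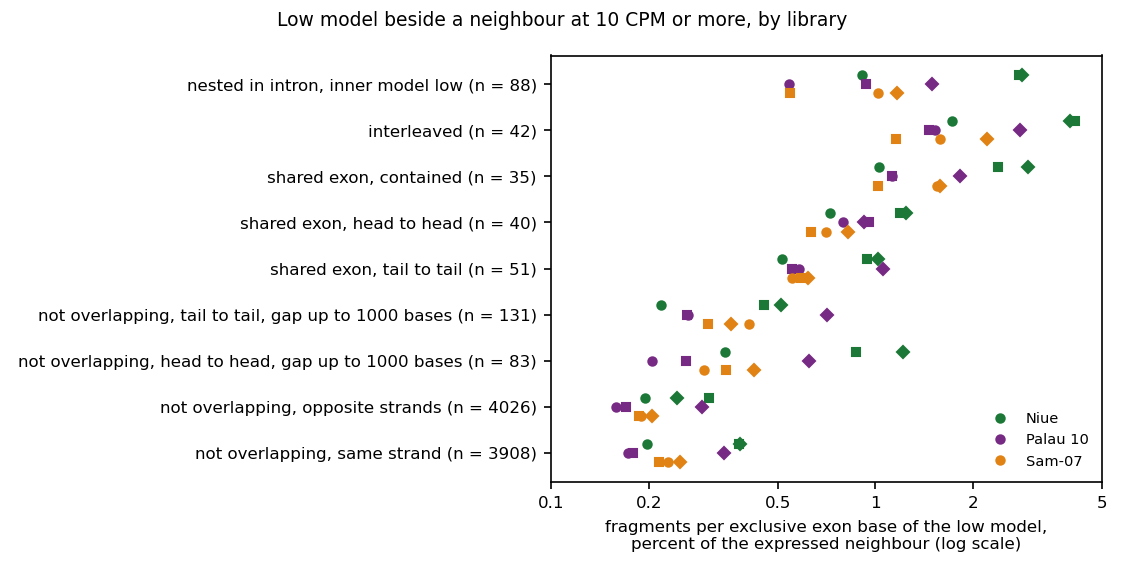
Fragments per exclusive exon base of the model under 1 CPM as a percent of those of its neighbour at 10 CPM or more, summed over the pairs of each arrangement, on a log scale. Each point is 1 library, coloured by cultivar, with circles, squares and diamonds for the replicates in increasing number; nested pairs ranged from 0.54% to 2.83% and non-overlapping opposite-strand pairs from 0.158% to 0.307%.

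Level ratios were taken per length, as CPM per 1000 exclusive exon bases (FPKM), for the 293 pairs with both models at 1 CPM or more and at least 200 exclusive bases each. The median absolute log2 ratio of the 2 levels was 1.93, and the medians of single libraries ran from 1.83 to 2.04. In 90 pairs the models were within 2-fold of each other and in 47 they differed over 16-fold. The same model was higher in all 9 libraries in 207 pairs (70.6%), beside 67.4% of the 7635 non-overlapping consecutive pairs. The median was 1.86 in shared-exon pairs, 2.08 in nested pairs and 1.62 in interleaved pairs, and in non-overlapping pairs it was 1.83 on opposite strands and 1.53 on the same strand. Among the 24 nested pairs with both present the host was higher in 19 and the inner model in 5. Across overlapping pairs the 2 levels were hardly related, with a Spearman rho of 0.04 over 293 pairs, which share the same 9 libraries.

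For the shared-exon and the nested class, the 2 pairs with the highest level of the lower model are given. The tail-to-tail pair Taro_027663|Taro_027664, which shares 42 exon bases, averaged 177 ± 33.1 and 319 ± 84.2 FPKM (SD over 9 libraries), and Taro_004627|Taro_004628, which shares 31 bases, averaged 36.2 ± 7.24 and 69.4 ± 15.7 FPKM. Among nested pairs the host Taro_005275 and its inner model Taro_005276 averaged 13 ± 10.8 and 14.4 ± 2.09 FPKM, and Taro_009428 and the inner Taro_009429 averaged 7.04 ± 2.24 and 6.93 ± 1.23 FPKM. Taro_005275 was near 0 in Palau 10, as described further on.

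Very uneven pairs also occurred. Taro_051349 averaged 1580 ± 755 FPKM and its tail-to-tail partner Taro_051348, with which it shares 444 exon bases, 4.02 ± 2.2 FPKM, a 394-fold difference. The host Taro_015115 averaged 120 ± 18.9 FPKM and the model in its second intron, Taro_015116, 0.825 ± 0.348 FPKM, a 145-fold difference. Taro_015116 had 0.421 to 1.72 CPM in the 9 libraries, from 4 to 22 fragments each. Its mean of 1.04 CPM lay just above the presence threshold of 1 CPM. Its counts cannot be told apart from RNA of the intron of Taro_015115, so the ratio may not measure a level of its own. Of the pairs with the most shared bases, Taro_013041 averaged 9.17 ± 3.58 FPKM and Taro_013040 had 11 fragments in all, and Taro_021247 averaged 8.37 ± 7.41 FPKM and Taro_021246 had 3 fragments. These 2 low models had 432 and 984 exclusive bases left for counting.

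Correlation across the 9 libraries was examined in the 161 pairs with both means at 5 CPM or more, as Pearson r of log2(CPM + 1). The median r was 0.08 (quartiles -0.34 and 0.4), 75 pairs lay below 0, 8 above 0.8 and 9 below -0.8. Medians of non-overlapping pairs were 0.03 on opposite strands and 0.2 on the same strand. An r under -0.8 was seen in 5.59% of overlapping pairs, 1.97% of all non-overlapping pairs and 2.52% of those on opposite strands. An r over 0.8 was seen in 4.97%, 9.64% and 4.99% of the same sets. Of the pairs under -0.8, 8 of the 9 were tail-to-tail pairs with shared exons (8 of 95), beside 5 of 259 close tail-to-tail pairs without overlap. These shares are a description without a test, and the pairs share libraries and cultivars. Nested pairs gave 4 values: 0.12 for Taro_005275|Taro_005276, -0.1 for Taro_037142|Taro_037143, -0.25 for Taro_040914|Taro_040915 and -0.68 for Taro_025645|Taro_025646, whose exact permutation p was 0.049 and 0.2 after adjustment. For the last pair rho was -0.72 (exact permutation p = 0.037, adjusted 0.24), and r was -0.57 without Niue replicate 3 and Sam-07 replicate 2. On deviations from the cultivar means, which remove differences between cultivars, r was 0.9 for Taro_005275|Taro_005276, -0.69 for Taro_037142|Taro_037143, -0.16 for Taro_040914|Taro_040915 and -0.66 for Taro_025645|Taro_025646.

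**Figure D4:**
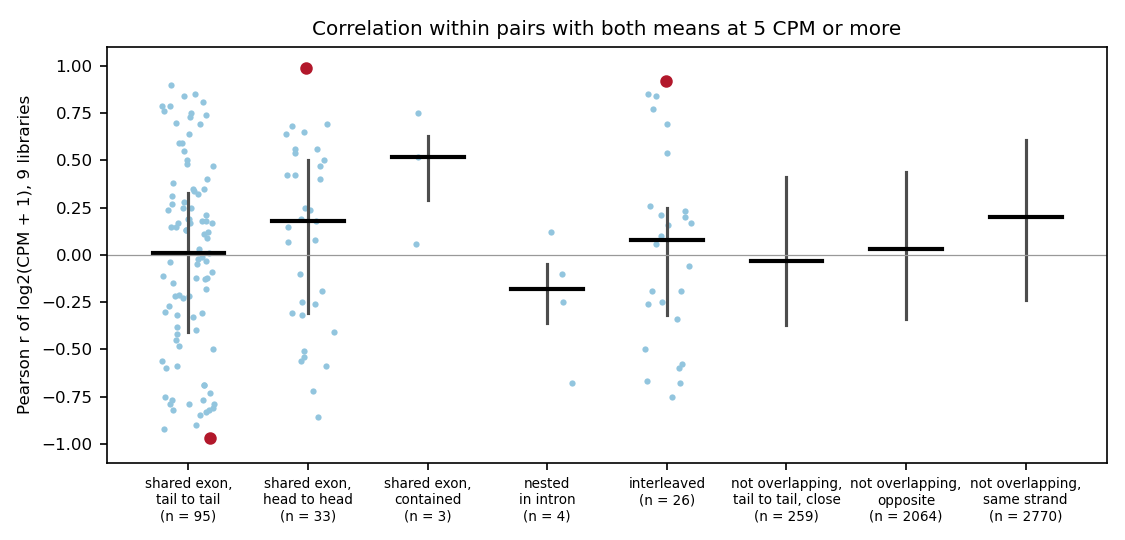
Pearson r of log2(CPM + 1) across 9 libraries within pairs with both means at 5 CPM or more. Points are overlapping pairs, red where the adjusted exact permutation p is under 0.05, black bars are medians and grey lines run between quartiles; for non-overlapping pairs the summary alone is drawn. Medians lie between -0.18 in nested pairs and 0.52 in the 3 shared-exon pairs where one range holds the other.

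Exact permutation over the 362880 orders of the libraries, adjusted over the 161 pairs by the Benjamini-Hochberg method, gave 3 pairs with an adjusted p under 0.05, and 40 pairs had an unadjusted p under 0.05, 20 with r above and 20 with r below 0. The permutation treats the 9 libraries as exchangeable, although libraries of a cultivar may not be independent. On deviations from the cultivar means the 3 called pairs had r of 0.98 (Taro_040574|Taro_040575), -0.98 (Taro_045113|Taro_045114) and 0.89 (Taro_018448|Taro_018449). The strongest was the head-to-head pair Taro_040574 (scaffold TARO_scaffold_003941, bases 117729 to 125737, minus strand) and Taro_040575 (121325 to 125891, plus strand), which share 449 exon bases. Taro_040574 had 0.323, 0.813 and 10.9 CPM in Niue replicates 2 to 4, 4.99, 1.74 and 161 CPM in Palau 10 replicates 1 to 3 and 6.59, 0.187 and 1.52 CPM in Sam-07 replicates 1 to 3. Taro_040575 had 0.259, 0.325 and 4.07 CPM, 1.5, 0.468 and 53.7 CPM, and 1.75, 0 and 0.761 CPM in the same order. Both were far higher in Palau 10 replicate 3 than elsewhere, and within each cultivar the 3 libraries had the same order for both models. Most of the 442 exclusive bases of Taro_040575 lie in introns of Taro_040574. Counts there cannot be told apart from RNA of Taro_040574, so the 2 levels are not independent measurements. Per length the models averaged 13 ± 32.7 and 15.8 ± 39.7 FPKM (SD over 9 libraries). Pearson r was 0.99 (exact permutation p = 5.5e-06, adjusted 0.00089) and Spearman rho 0.98 (permutation p = 5e-05, adjusted 0.008), and r was 0.97 without Niue replicate 4 and Palau 10 replicate 3, the libraries farthest from the median. Without the 2 libraries that stand apart r was 0.96 with an adjusted permutation p of 0.064.

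The strongest negative value belonged to the tail-to-tail pair Taro_045113 (TARO_scaffold_005230, 5192 to 7174, plus strand) and Taro_045114 (6439 to 14834, minus strand), which share 137 exon bases. Taro_045113 had 2.2, 2.93 and 9.86 CPM in Niue, 21.3, 4.01 and 43.1 CPM in Palau 10 and 40.7, 1.03 and 32.4 CPM in Sam-07. Taro_045114 had 248, 262 and 208 CPM in Niue, 209, 244 and 192 CPM in Palau 10 and 180, 272 and 190 CPM in Sam-07. In Palau 10 and in Sam-07 the library with the lowest Taro_045113 had the highest Taro_045114, in Niue the one with the highest Taro_045113 had the lowest Taro_045114, and the cultivar ranges overlapped for both. Pearson r was -0.97 (exact permutation p = 0.00015, adjusted 0.012), rho was -0.92 (permutation p = 0.0013, adjusted 0.07), and r was -0.96 without Palau 10 replicate 3 and Sam-07 replicate 2. With library-size scaling in place of TMM factors r was -0.8 with an adjusted permutation p of 0.14, and without Sam-07 replicate 2 it was -0.96 with an adjusted p of 0.056. Without both libraries that stand apart it was -0.96 with an adjusted p of 0.069. Over the 9 libraries Taro_045114 varied by far less than Taro_045113, with 88.4 ± 13.5 against 15.2 ± 15 FPKM. Part of the second exon of Taro_045113 lies in an intron of Taro_045114. Counts there cannot be told apart from RNA of Taro_045114, so the 2 levels are not independent measurements.

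The third was the interleaved head-to-head pair Taro_018448|Taro_018449, named here after its value was seen, with r = 0.92 (exact permutation p = 0.00064, adjusted 0.035), rho = 0.78 (permutation p = 0.017, adjusted 0.16) and r = 0.86 without Sam-07 replicates 2 and 3. Its models averaged 29.7 ± 7.8 and 10.5 ± 2.46 FPKM, and both were highest in Sam-07 replicate 3. Each has an exon in an intron of the other, where counts cannot be told apart from RNA of the other model. Taro_021398|Taro_021399 had r = 0.9 (exact permutation p = 0.053, adjusted 0.21) and rho = 0.4 (exact permutation p = 0.29, adjusted 0.67). The high r rested on 1 library, since it was -0.01 without Palau 10 replicate 3, in which Taro_021398 had 76 CPM against 164 to 233 CPM elsewhere. The tail-to-tail pair Taro_008571|Taro_008572 had r = -0.92 (exact permutation p = 0.0018, adjusted 0.073) and rho = -0.83 (exact permutation p = 0.0083, adjusted 0.16), and r was -0.89 without Sam-07 replicates 1 and 3. In Taro_051348|Taro_051349 r was -0.21 (exact permutation p = 0.6, adjusted 0.83), rho was -0.32 (exact permutation p = 0.41, adjusted 0.82), and r was -0.91 without Palau 10 replicate 3 and Sam-07 replicate 1.

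Cultivar differences were tested with edgeR's quasi-likelihood test on all 18865 gene models that passed the filter on low counts, of which 1275 were members, with Benjamini-Hochberg adjustment over all of them. The 3 comparisons share libraries. Between Palau 10 and Niue 32 of the 1275 members were called at an adjusted p under 0.05, 9 higher and 23 lower in Palau 10, or 2.51% beside 1.81% of all tested models (0.625% higher and 1.18% lower). Between Sam-07 and Niue 19 were called, 7 higher and 12 lower in Sam-07, or 1.49% beside 1.22% of all (0.461% and 0.758%). Between Sam-07 and Palau 10, 27 were called, 13 higher and 14 lower in Sam-07, or 2.12% beside 1.73% (0.848% and 0.885%). Over the 3 cultivars jointly 46 were called, 3.61% beside 2.72%. These shares lie near those of all tested models. Without Palau 10 replicate 3 and Sam-07 replicate 2 the counts in the same order were 53, 81, 40 and 106, beside 3.44%, 5.96%, 3.17% and 7.68% of all tested models, a choice made after seeing the data. The counts of the 3 pairwise comparisons were 4.23%, 6.46% and 3.19% of the tested members. Between Palau 10 and Niue the count fell to 18, 17 and 12 without Niue replicate 2, 3 or 4 and to 14 without Palau 10 replicate 1 or 2. In this order 1.38%, 1.29%, 0.911%, 1.08% and 1.08% of tested members were called, beside 1%, 0.842%, 0.806%, 0.989% and 0.953% of all tested models. Between Sam-07 and Niue it was 9, 10 and 7 without Niue replicate 2, 3 or 4, 11 and 10 without Sam-07 replicate 1 or 3, and 29 without Palau 10 replicate 3. The shares were 0.692%, 0.76%, 0.532%, 0.827%, 0.752% and 2.24% of tested members, beside 0.526%, 0.563%, 0.47%, 0.61%, 0.627% and 1.78% of all. Between Sam-07 and Palau 10 the count was 17 without Niue replicate 4, 14 and 15 without Palau 10 replicate 1 or 2, and 13, 16 and 14 without Sam-07 replicate 1, 2 or 3. The shares were 1.29%, 1.08%, 1.15%, 0.977%, 1.24% and 1.05% of tested members, beside 1.02%, 0.895%, 0.89%, 0.892%, 1.03% and 0.802% of all. Over the 3 cultivars the count was 29, 30 and 24 without Niue replicate 2, 3 or 4, 26 and 24 without Palau 10 replicate 1 or 2, and 29 without Sam-07 replicate 1. No shares are given beside these joint counts, so their fall from 46 is not a result about the members. In the pairwise settings listed, the shares of all tested models moved in the same direction as those of members.

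By class, 33 of 910 tested members of shared-exon pairs (3.63%), 5 of 205 of nested pairs (2.44%) and 9 of 167 of interleaved pairs (5.39%) were called over the 3 cultivars. Of all tested models 2.72% were called. The counts of nested and interleaved pairs are small, and the classes were not compared by a test. Of the 50 members called in any of these 4 tests, 26 had their highest cultivar mean in Niue, 15 in Palau 10 and 9 in Sam-07. These are 52%, 30% and 18% of the called members, beside 42.4%, 31.6% and 25.9% of all called gene models. In 9 of them (18%) a cultivar had no fragment at all, beside 33.2% of all called models. Their highest cultivar mean ranged from 1.32 to 233 CPM, with a median of 6.81.

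Calls came to 1 model of a pair far more often than to both. The 50 called members had 52 partners, of which 12 had no fragment, 18 had a fragment but did not pass the filter, 14 were tested and not called, and 8 were called. In single comparisons 2, 1 and 1 pairs had both models called, in each case in the same direction, beside 30, 18 and 25 pairs with 1 called model. Of the 365 overlapping pairs with both models tested these were 0.548%, 0.274% and 0.274%, beside 0.175%, 0.164% and 0.164% of 8558 non-overlapping pairs. Over the 3 cultivars both were called in 4 overlapping pairs (1.1%) and 35 non-overlapping pairs (0.409%). Exactly 1 model was called in 11, 5 and 11 of the 365 pairs (3.01%, 1.37% and 3.01%), beside 2.43%, 1.75% and 2.56% of the non-overlapping ones. The counts of both called are small, and no test of these shares was made. A partner that misses the threshold is not shown to be unchanged, so the level ratio within pairs was tested directly.

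The ratio test used limma on the difference of log2 CPM between the model with the lower and the one with the higher start, over 8923 consecutive pairs with both models tested. Between Palau 10 and Niue 8 of the 365 overlapping pairs were called, or 2.19% beside 2.07% of all pairs, with the ratio higher in Palau 10 in 2 and lower in 6 (1.05% and 1.02% of all). Between Sam-07 and Niue 3 were called, 0.822% beside 1.5%, with 1 higher and 2 lower in Sam-07 (0.818% and 0.684% of all). Between Sam-07 and Palau 10, 6 were called, 1.64% beside 1.77%, with 4 higher and 2 lower in Sam-07 (0.964% and 0.807% of all). Over the 3 cultivars 9 were called, 2.47% beside 2.96%. The shares of overlapping pairs were near those of all pairs. In every called pair but 1 a single model was itself called by edgeR in that comparison, and in Taro_052790|Taro_052791 between Sam-07 and Niue neither was. Without the 2 libraries that stand apart the counts were 16, 30, 11 and 28, or 4.48%, 8.4%, 3.08% and 7.84% of overlapping pairs beside 3.54%, 7.71%, 3.51% and 8.36% of all pairs. Between Palau 10 and Niue 5 pairs were called without Niue replicate 3 or 4 or Palau 10 replicate 1. Between Sam-07 and Niue 1 was called without Niue replicate 2 or 3, 6 without Palau 10 replicate 3 and 7 without Sam-07 replicate 2. Shares over all pairs are not given for these settings with 1 library left out, so the counts are not a result about overlapping pairs.

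Among overlapping pairs the largest ratio change was in the nested pair of Taro_005275 (TARO_scaffold_000146, 734605 to 744924, plus strand) and Taro_005276 (737366 to 742896, minus strand), which lies in the second, 9150-base intron of the host. The host Taro_005275 had 14.5, 13 and 10.7 CPM in Niue replicates 2 to 4, 0, 0 and 0.0664 CPM in Palau 10 replicates 1 to 3 and 8.45, 15.9 and 7.11 CPM in Sam-07 replicates 1 to 3. The inner Taro_005276 had 38.9, 38.2 and 35.2 CPM, 31.3, 31.4 and 36.4 CPM, and 26, 33.9 and 26 CPM in the same order. All Palau 10 libraries lay below all others for the host, with 1 fragment in total, while for the inner model Palau 10 overlapped both other cultivars. Pooled fragments of the host were 621 times as frequent in Niue as in Palau 10 (95% interval 111 to 24600) and 564 times as frequent in Sam-07 (101 to 22300), and edgeR's adjusted p was 0.0011 and 0.00063. Intervals of this kind cover counting error only. For the inner model edgeR gave a log2 fold change of -0.18 ± 0.19 (SE, adjusted p = 0.74) between Palau 10 and Niue. The log2 ratio of host to inner model was lower by 5.96 (SE 0.33, limma adjusted p = 9e-05) in Palau 10 than in Niue and 0.04 (SE 0.33, adjusted p = 0.98) apart between Sam-07 and Niue. With 1 host fragment in Palau 10 the size of the former depends on the prior count, set at 2: it was -7.64 with a prior count of 0.5 and -4.76 with 5, both called.

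The inner model rather than the host was called in the nested pair of Taro_052790 (TARO_scaffold_009196, 24054 to 32789, plus strand) and the inner Taro_052791 (27411 to 30609, minus strand). Taro_052791 had 5.37, 5.04 and 4.93 CPM in Niue, 0.0623, 0.201 and 0.863 CPM in Palau 10 and 0.206, 0.328 and 0.634 CPM in Sam-07. Its host had 3.88, 2.93 and 3.64 CPM in Niue, 7.29, 6.82 and 6.04 CPM in Palau 10 and 5.36, 5.34 and 4.31 CPM in Sam-07. Niue was highest for the inner model and lowest for the host, with no overlap to the other cultivars in either. The inner model fell by 3.74 on the log2 scale (SE 0.76, edgeR adjusted p = 0.048) in Palau 10, and for the host the change was 0.94 ± 0.25 (SE, adjusted p = 0.15). The log2 ratio of host to inner model was higher by 4.52 (SE 0.67, limma adjusted p = 0.0075) in Palau 10 than in Niue and by 3.84 (SE 0.67, adjusted p = 0.024) in Sam-07 than in Niue. The former was 5.18 without Palau 10 replicate 3, and 5.14 and 3.83 with prior counts of 0.5 and 5, called in each case. The latter was lost without any of the Niue replicates or without Sam-07 replicate 1 or 2, with adjusted p of 0.089, 0.11, 0.12, 0.11 and 0.054.

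Among interleaved pairs the ratio changed in Taro_018815 (TARO_scaffold_000889, 238062 to 245410, minus strand) and Taro_018816 (241941 to 250489, plus strand). Taro_018816 had 85.7, 114 and 72.1 CPM in Sam-07, against 8.28, 8.78 and 8.15 CPM in Niue and 12.8, 6.75 and 3.59 CPM in Palau 10. Taro_018815 had 37.5, 44.3 and 38.8 CPM in Sam-07, 28, 34.1 and 30 CPM in Niue and 44.1, 26.5 and 12.4 CPM in Palau 10. Sam-07 stood above all other libraries for Taro_018816, and it overlapped Palau 10 for Taro_018815. Each model has an exon in an intron of the other, and counts there cannot be told apart from RNA of the other model. Taro_018816 rose by 3.43 ± 0.44 on the log2 scale (SE, edgeR adjusted p = 0.008) in Sam-07 over Niue, and the ratio of the pair shifted by -2.99 (SE 0.24, limma adjusted p = 0.00035). Without Niue replicate 4 the edgeR adjusted p was 0.057.

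Over the 3 cultivars the ratio changed in 6 pairs with shared exons, of which 2 are described. In the tail-to-tail pair Taro_052671|Taro_052672 (TARO_scaffold_009094, 14682 to 16469 and 15962 to 29321), Taro_052671 had 6.47, 4.39 and 5.79 CPM in Niue, 0.499, 0.602 and 0 CPM in Palau 10 and 28.5, 45.5 and 46.6 CPM in Sam-07. Its partner Taro_052672 had 8.41, 13.2 and 12 CPM, 8.23, 8.02 and 6.31 CPM, and 13, 11.4 and 12.8 CPM in the same order. The 3 cultivars were fully separate for Taro_052671, with Sam-07 highest and Palau 10 lowest, and for Taro_052672 Palau 10 lay below the others. Taro_052671 was higher by 6.73 ± 0.74 (log2, SE, edgeR adjusted p = 0.0025) in Sam-07 than in Palau 10, and the ratio by 5.79 (SE 0.56, limma adjusted p = 0.00085). The ratio change was 5.19 without Palau 10 replicate 3, 4.98 without both libraries that stand apart, and 6.62 and 5.09 with prior counts of 0.5 and 5, called in each case. The call of Taro_052671 between Palau 10 and Niue (-3.89 ± 0.69, edgeR adjusted p = 0.025) was lost without any single Niue library, Palau 10 replicate 1 or 2, or Sam-07 replicate 3, with adjusted p from 0.057 to 0.092.

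In the tail-to-tail pair Taro_038174|Taro_038175 (TARO_scaffold_003399, 37589 to 48556 and 44928 to 50687), Taro_038175 had 3.4, 6.65 and 2.79 CPM in Sam-07, 0.194, 0.163 and 0.858 CPM in Niue and 0.561, 0.602 and 0.332 CPM in Palau 10. Taro_038174 had 56.8 to 68.5 CPM in Sam-07, 73.5 to 89.6 CPM in Niue and 57.4 to 69.9 CPM in Palau 10. Sam-07 was above all other libraries for Taro_038175 and overlapped Palau 10 for Taro_038174. The longest exon of Taro_038175 lies in an intron of Taro_038174, and counts there cannot be told apart from RNA of Taro_038174. The low levels of Taro_038175 in Niue and Palau 10 may therefore not be its own. The log2 ratio changed by -3.4 ± 0.54 (SE, limma adjusted p = 0.014), in Sam-07 relative to Niue, and this call was lost without Niue replicate 2 or 3 or Sam-07 replicate 1, with adjusted p of 0.069, 0.066 and 0.063.

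**Figure D5:**
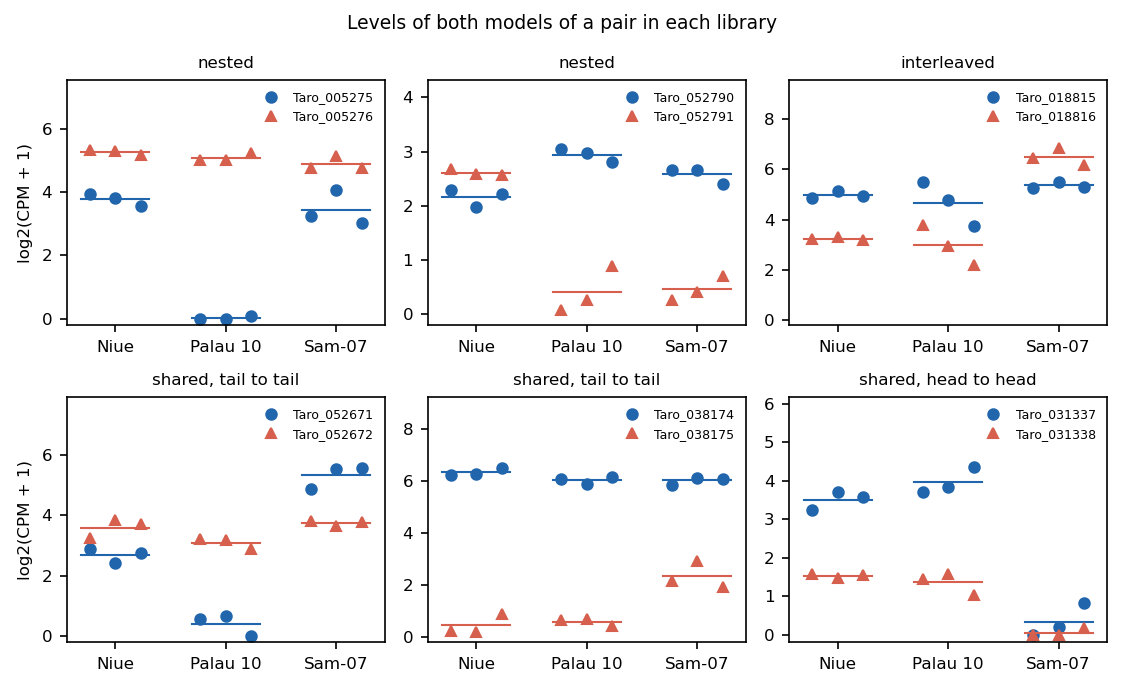
log2(CPM + 1) of both models of 6 overlapping pairs in the 3 libraries of each cultivar (points, blue circles for the model with the lower start and red triangles for the other), with lines at cultivar means. Heights of the 2 models are not per length. Taro_005275 is near 0 in the Palau 10 libraries and Taro_005276 is not, Taro_018816 is highest in the Sam-07 libraries, and both models of Taro_031337|Taro_031338 are near 0 in Sam-07.

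Both models moved together in a few overlaps. In the head-to-head pair Taro_031337 (TARO_scaffold_002216, 181428 to 198776, minus strand) and Taro_031338 (194025 to 199626, plus strand), which share 639 exon bases, Taro_031337 had 8.47, 12 and 10.9 CPM in Niue, 12.2, 13.3 and 19.5 CPM in Palau 10 and 0, 0.14 and 0.761 CPM in Sam-07. Taro_031338 had 2.01, 1.79 and 1.93 CPM, 1.74, 2.01 and 1.06 CPM, and 0, 0 and 0.127 CPM in the same order. Sam-07 lay below all other libraries for both, with 9 and 1 fragments in total. Between Sam-07 and Palau 10, Taro_031337 fell by 5.82 on the log2 scale (SE 0.76, edgeR adjusted p = 0.0061) and Taro_031338 fell by 5.41 (SE 0.85, adjusted p = 0.015), and between Sam-07 and Niue the changes were -5.3 ± 0.75 and -5.66 ± 0.86 (SE, adjusted p = 0.012 and 0.016). The log2 ratio of the pair differed by -2.25 ± 0.58 (SE, limma adjusted p = 0.14) between Sam-07 and Palau 10. The sizes rest on few Sam-07 fragments, 6 of the 9 and the only 1 being in replicate 3. Without Sam-07 replicate 3 the changes against Palau 10 were -7.21 and -7.38 and against Niue -6.69 and -7.63, all called. Without Sam-07 replicate 2 the change of Taro_031338 was -4.55 against Palau 10 and -4.8 against Niue. Without both libraries that stand apart Taro_031337 changed by -5.12 and Taro_031338 by -4.75 against Palau 10. Taro_031338 missed the threshold against Niue without any single Niue library or Sam-07 replicate 1 (adjusted p from 0.062 to 0.079), and against Palau 10 without Palau 10 replicate 1 or 2 or Sam-07 replicate 1 or 2 (from 0.057 to 0.075). Taro_031337 missed it against Niue without Niue replicate 4 (0.054) or Sam-07 replicate 2 (0.052). The models averaged 2.3 ± 1.84 and 1.64 ± 1.25 FPKM (SD over 9 libraries). Counts on the exclusive bases of Taro_031338 in introns of Taro_031337 cannot be told apart from RNA of Taro_031337.

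A chain of 3 overlapping models on TARO_scaffold_003196 was lower in Palau 10 than in Niue throughout. Taro_037127 (111826 to 122552, plus strand) had 2.39, 2.11 and 1.5 CPM in Niue, 0, 0.0668 and 0 CPM in Palau 10 and 0.515, 0.281 and 0 CPM in Sam-07. Taro_037128 (112082 to 135451, minus strand) had 4.79, 6.18 and 6 CPM, 1.31, 0.602 and 0.93 CPM, and 1.34, 2.62 and 1.65 CPM in the same order. Taro_037129 (123693 to 125328, plus strand) had 1.42, 1.46 and 1.07 CPM, 0.0623, 0.0668 and 0.0664 CPM, and 0.206, 0.468 and 0.508 CPM. Niue lay above both other cultivars for each of the 3 models. The log2 changes in Palau 10 were -6 ± 1.06, -2.56 ± 0.41 and -4.16 ± 0.57 (SE, edgeR adjusted p = 0.024, 0.016 and 0.0082). Taro_037127 is covered by 1 fragment in Palau 10, and its pooled ratio was 99.9 (95% interval 17.2 to 4020). Without Palau 10 replicate 2, which holds that fragment, its change was -7.61. Of the exon length of Taro_037129, 89% is shared with Taro_037128, which left 119 exclusive bases. These bases, and all exons of Taro_037127 but its first, lie in introns of Taro_037128. Counts there cannot be told apart from RNA of Taro_037128, so the 3 changes are not independent observations. Taro_037127 missed the threshold without any single library of either cultivar (adjusted p from 0.061 to 0.13), Taro_037128 without any Niue library or Palau 10 replicate 2 (0.051 to 0.081) and Taro_037129 without Palau 10 replicate 1 or 2 (0.06 and 0.058).

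A further head-to-head pair, Taro_052917|Taro_052918, named after its values were seen, was called for both models over the 3 cultivars (edgeR adjusted p = 0.028 and 0.046). Taro_052917 had 2.56, 3.21 and 3.32 CPM in Palau 10 and at most 0.468 CPM elsewhere, and Taro_052918 had 1.93, 1.27 and 2.19 CPM in Palau 10 and at most 0.325 CPM elsewhere. All Palau 10 libraries exceeded all others for both. The first and longest exon of Taro_052918 lies in an intron of Taro_052917, and counts there cannot be told apart from RNA of Taro_052917. Between Sam-07 and Palau 10 edgeR's adjusted p was 0.053 for Taro_052917 and 0.045 for Taro_052918, and between Palau 10 and Niue it was 0.055 and 0.19, so that neither was called there. In Sam-07 Taro_052918 had no fragment, which makes its Palau 10 level at least 23.3-fold higher, set against 3 fragments over the group.

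Several members differed strongly beside a partner with few or no counts. Taro_029108 (TARO_scaffold_001917, 113136 to 121881, minus strand) was not detected in Niue, had 0.0623, 0.201 and 0.0664 CPM in Palau 10 and reached 25.1, 40.1 and 29.4 CPM in Sam-07. The head-to-head partner Taro_029109, with 162 shared exon bases, had 2 fragments in all, both in Sam-07 replicate 2, the library with the highest Taro_029108. That library is also the deepest, with 18175384 fragments. An exon of Taro_029109 lies in an intron of Taro_029108, where counts cannot be told apart from RNA of Taro_029108. Taro_029108 was at least 276-fold higher in Sam-07 than in Niue (edgeR adjusted p = 0.0015), set against 3 fragments over the group, and pooled fragments were 315 times as frequent as in Palau 10 (95% interval 135 to 973, edgeR adjusted p = 0.00065).

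Taro_054681, a host with the low model Taro_054682 in its ninth intron, had 34.2, 32.3 and 31.7 CPM in Niue, 7.17, 4.41 and 2.46 CPM in Palau 10 and 6.08, 6.37 and 2.41 CPM in Sam-07. Niue lay above all other libraries. The inner model had 15 fragments over the 9 libraries, 0 to 4 in each, and 3, 8 and 4 of them came from Niue, Palau 10 and Sam-07. The host changed by -2.71 ± 0.46 on the log2 scale (SE, edgeR adjusted p = 0.025), in Sam-07 against Niue, a call that was lost without any single library of these cultivars (adjusted p from 0.053 to 0.1).

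Taro_051452, head to head with Taro_051453 over 166 shared exon bases, had 11.1, 11.4 and 12 CPM in Niue, 10.7, 13.2 and 14.5 CPM in Palau 10 and 1.85, 2.11 and 2.03 CPM in Sam-07. Sam-07 lay below all other libraries, and Taro_051452 fell by 2.67 on the log2 scale against Palau 10 (SE 0.23, edgeR adjusted p = 0.00072). Taro_051453 had 0.412, 0.656 and 0.888 CPM in Sam-07, 1.06, 1.07 and 0.332 CPM in Palau 10 and 1.55, 0.975 and 1.5 CPM in Niue. Its Sam-07 libraries overlapped Palau 10 and lay below Niue. Its log2 change in Sam-07 was -0.34 ± 0.55 (SE, edgeR adjusted p = 0.9) against Palau 10 and -1.05 ± 0.56 (adjusted p = 0.62) against Niue. The log2 ratio of the pair differed by -2.38 ± 0.54 (SE, limma adjusted p = 0.079) against Palau 10 and by -1.53 ± 0.54 (adjusted p = 0.38) against Niue.

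Palau 10 exceeded Niue in 2 further named members. Taro_045764 had 29.2, 26.2 and 11.7 CPM in Palau 10, 2.13, 5.53 and 3.43 CPM in Niue and 5.05, 3.56 and 2.92 CPM in Sam-07, and its head-to-head partner Taro_045763 had no fragment in any library. Palau 10 stood above all other libraries, by 2.62 ± 0.47 (log2, SE, edgeR adjusted p = 0.026) over Niue, and the call was lost without Niue replicate 2 or 4 or Palau 10 replicate 1 or 2 (adjusted p from 0.086 to 0.14). Taro_034309 had 6.98, 6.22 and 7.9 CPM in Palau 10, 1.04, 2.44 and 2.14 CPM in Niue and 15.7, 16.3 and 13.6 CPM in Sam-07, so that the cultivars did not overlap. It was higher by 1.96 ± 0.34 (log2, SE, edgeR adjusted p = 0.021) in Palau 10 than in Niue and lost the call without Niue replicate 4 or Palau 10 replicate 1 or 2 (adjusted p from 0.057 to 0.081). Its tail-to-tail partner Taro_034308 had 11 fragments, 4 in Niue, 7 in Palau 10 and 0 in Sam-07, the cultivar with the highest Taro_034309.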

How the data were processed

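Leaf RNA-seq of 9 taro libraries was deposited as 1 table of fragment counts per library. The submitters' processing notes name STAR (version given as 3.5.0a), Trimmomatic 0.33, bcl2fastq 1.8.4 and featureCounts of Subread 1.4.6. The authors made the counts, per the file headers, with featureCounts 1.4.6-p4 on paired fragments over exons per gene identifier, with no strand option. Fragments that map to several places or overlap several gene models are thus not counted. For the genome build no name was found in the labels or headers, and coordinates, 1-based, are those of the deposited tables. No genome sequence was used.

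The overlapping pairs, the named models and the lists were chosen with earlier results of these data known. Fragments per exclusive base of low models were added after seeing the data. Counts were scaled with TMM factors. Gene models were filtered with filterByExpr (minimum count 10, total 15) and tested with edgeR 4.0.16 (quasi-likelihood) with one fit over the 9 libraries and no covariates. Level ratios were tested with limma 3.58.1 (trend) on log2 CPM with a prior count of 2. Both used Benjamini-Hochberg adjustment over all features at a threshold of 0.05 and were tested on simulated data. R 4.3.3 and scipy 1.17.1 were used. Correlations used exact permutation over library orders. Named models were the most extreme pairs of each class by shared bases, intron length, level, level ratio, correlation and called change; 2 pairs were named after their values were seen. No libraries of one cultivar were duplicates by a chi-square test of their counts. Alternatives were DESeq2 1.42.0, other filters and scalings, leaving out libraries and a replicate block.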

Additional observations from a re-analysis of the deposited data

How the results depend on the processing

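Members called between Palau 10 and Niue, Sam-07 and Niue, Sam-07 and Palau 10 and over the 3 cultivars numbered 32, 19, 27 and 46. With at least 10 CPM in 3 libraries the counts were 9, 9, 8 and 15, with DESeq2 49, 44, 53 and 82, and without both libraries that stand apart (chosen after seeing the data) 53, 81, 40 and 106. In the 3 pairwise comparisons the 10 CPM filter gave 1.26%, 1.26% and 1.12% of tested members, beside 0.776%, 0.569% and 0.707% of all tested models. DESeq2 gave 3.84%, 3.45% and 4.16% of members, beside 3.8%, 3.09% and 3.92% of all. Leaving out single libraries gave 12 to 35, 7 to 29, 13 to 28 and 24 to 49. The pairwise counts were 0.911% to 2.71%, 0.532% to 2.24% and 0.977% to 2.17% of tested members. Over all tested models the shares were 0.806% to 2.21%, 0.47% to 1.78% and 0.802% to 2.1%. Pairs with a changed level ratio numbered 8, 3, 6 and 9, with the 10 CPM filter 1, 1, 3 and 3, without both libraries 16, 30, 11 and 28, and without single libraries 5 to 9, 1 to 7, 4 to 7 and 6 to 12. Whether the labels' replicate numbers pair the libraries cannot be decided from 3 libraries per cultivar. Deviations of same-numbered libraries correlated from -0.48 to 0.42 and those of differently numbered ones from -0.49 to 0.47. With a replicate block the member counts were 0, 1, 7 and 2 and the ratio counts 1, 0, 5 and 4. In the 3 pairwise comparisons 0%, 0.0784% and 0.549% of tested members were then called, beside 0.0053%, 0.0477% and 0.371% of all tested models. The counts over the 3 cultivars and the ratio counts stand in this paragraph without shares over all features. They are not results about the overlapping models.

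The median r of 0.08 was 0.2 with library size alone, 0.02 on deviations from cultivar means, 0.11 and -0.06 with means of 1 and 20 CPM or more, and 0.01 to 0.09 without single libraries. Both models were present in 14.5% of pairs, in 9.9% at 1 CPM in all 9 libraries, in 7.82% at a mean of 5 CPM and in 14.2% to 14.6% without single libraries. The median absolute log2 level ratio of 1.93 was 1.85 over all exon bases, 1.85 with library size alone, 1.5 at 5 CPM and 1.78 to 1.87 without single libraries. The sign of r turned with library size alone in Taro_005275|Taro_005276 (-0.01), Taro_037142|Taro_037143 (0.11) and Taro_040914|Taro_040915 (0.42). Leaving out single libraries gave -0.03 (without Niue replicate 2) to 0.29 in Taro_005275|Taro_005276, -0.28 to 0.03 (without Sam-07 replicate 1) in Taro_037142|Taro_037143 and -0.01 (without Palau 10 replicate 3) to 0.94 in Taro_021398|Taro_021399. On deviations from cultivar means the first 2 moved furthest, to 0.9 and -0.69. The causes were not tested. Depth limits low models: 3 fragments pooled over a cultivar correspond to 0.114 CPM in Niue, 0.0651 in Palau 10 and 0.077 in Sam-07.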
